A study of Mus musculus with 8 samples.

Results

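The data describe how mouse small intestinal organoids that had received 6 Gy of X-rays changed between day 4 and day 7. They come from 4 of the 8 RNA-seq libraries of the series, 2 irradiated libraries at day 4 and 2 at day 7, chosen by their labels. The other 4 libraries, 2 of unirradiated control organoids at each day, served to show what changed over the same days without irradiation. All 8 came from C57BL/6 mice aged 4 to 8 weeks, Tg/Tg for Rosa26-rtTA and likewise Tg/Tg for Col1A1-TetO-OSKM. This second allele carries the reprogramming factors OSKM behind a tetracycline-responsive promoter, and no label names an inducer for any group. The cultures were grown in IntestiCult medium, and poly-A RNA was sequenced with a strand-keeping kit. The labels do not say from which event the days were counted, nor whether the 2 replicates of a group were separate cultures, so that p-values measure the spread between these libraries, which may be technical.

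Intestinal organoids are closed epithelial structures in which crypt-base stem cells feed dividing progenitors, and progenitors mature into absorptive enterocytes and into goblet, Paneth, enteroendocrine and tuft cells. Ionising radiation breaks DNA and stabilises p53, which halts division and can kill cells. Recovery of the irradiated gut is known to pass through a regenerative, fetal-like state before homeostatic stem cells are restored.

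Total expected counts ran from 7541760 to 16054300 per library. All levels below are CPM (library-scaled read counts, with TMM factors), and log2 fold changes are given ± the standard error of an edgeR quasi-likelihood fit over all 8 libraries (n = 2 per group). A gene was called at an adjusted p under 0.05 (Benjamini-Hochberg over 14063 tested genes), and p-values throughout come from this test unless another is named. The epithelial label was borne out by the 10 pan-epithelial markers, which were all tested and summed to 4636 to 7503 CPM per library. Of 22 immune markers, 7 had no count in any library, Cd8a, Cd4, Adgre1 and Itgax among them, and 4 were tested. The sum over all 22 was 11.7 and 14.4 CPM in the irradiated day 4 pair, above the range of 5.03 to 7.58 CPM found elsewhere. The 16 mesenchymal markers, of which 6 were tested, summed to 20.3 to 26.7 CPM in the 4 day 4 libraries and to 7.52 to 10.1 CPM in the 4 day 7 libraries, with irradiated and control organoids alike and Thy1 at 0 throughout. Vim held the most counts of them (884, with Fn1 next at 205). Its deposited TPM was 14.28 to 18.38 at day 4 and 2.5 to 5.26 at day 7. From day 4 to day 7, 1 marker was called lower in each condition. The sum of the 11 endothelial markers, of which 5 were tested, was 7.70 to 13.6 CPM over the 8 libraries, with Cdh5, Kdr and Cldn5 at 0. The part of such cells in the results was not tested. In bulk RNA, fewer cells of a type and less RNA per cell cannot be told apart.

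Replicates lay closer together on day 7. Irradiated pairs had a biological coefficient of variation of 0.173 (day 4) and 0.041 (day 7), and control pairs 0.136 and 0.047. The second irradiated day 4 library stood apart, with 27.6% of its counts from mitochondrial genes against 12.9 to 20.7% in the other 7. Several results below are given with and without it. Mitochondrial transcripts fell in irradiated organoids (12 of 13, median log2 fold change -1.22, the difference called for 3), and none was called in controls (median -0.31). Without the second irradiated day 4 library 3 of them fell (median -0.78), and 5 and 2 without the first and second irradiated day 7 library.

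Between day 4 and day 7, 4639 genes changed in irradiated organoids, 33.0% of those tested: 2071 rose (14.7%) and 2568 fell (18.3%). Of all tested genes, 1151 fell by at least 2-fold (8.18%) and 237 rose by as much (1.69%). Over the same days 382 genes changed in control organoids (2.72%), 176 higher (1.25%) and 206 lower (1.46%). The change itself differed between irradiated and control organoids for 1422 genes (10.1%), with 647 more positive (4.60%) and 775 more negative (5.51%) in irradiated organoids. Both tests were passed in the same direction by 1307 genes (9.29%), 596 higher (4.24%) and 711 lower (5.06%). Of these, 551 higher genes (3.92%) and 549 lower genes (3.90%) had a control change that was not called and was under 0.5 in size on the log2 scale. In all, 232 genes (1.65%) changed in the same direction with and without irradiation, which is 5.0% of the irradiated calls and 60.7% of the control calls.

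These counts depend on single libraries and on the scale. Leaving out either irradiated day 7 library left 2171 and 2094 genes called in irradiated organoids, and 3319 were called without the second irradiated day 4 library. Without any one of the 4 day 7 libraries the difference was called for 244 to 270 genes. It was called for 882 genes without the second control day 4 library and for 2718 without the first irradiated day 4 library. Control calls numbered 31 and 17 without the first and second control day 7 library, 143 without the second control day 4 library and 102 and 105 without an irradiated day 7 library. They numbered 746 without the first control day 4 library, and 1220 and 1234 without an irradiated day 4 library. On the deposited TPM scale (log2 of TPM + 1, limma) 4115 genes were called, 3355 higher and 760 lower, and the median gene moved by 0.299 against -0.0348 in the fit of counts. In irradiated organoids more genes were called higher than lower also without the first irradiated day 7 library (1195 against 976), without the second (1081 against 1013) and with no filter on low counts (2735 against 2389). Higher calls made up 81.5% of irradiated calls on that scale and 44.6% in counts, 59.7% against 45.5% for the difference and 60.3% against 46.1% in controls. Group medians on the TPM scale are therefore given relative to that shift. Of the 83 genes named below whose difference was called, 34 kept that call in every fit that left out 1 library.

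**Figure D1:**
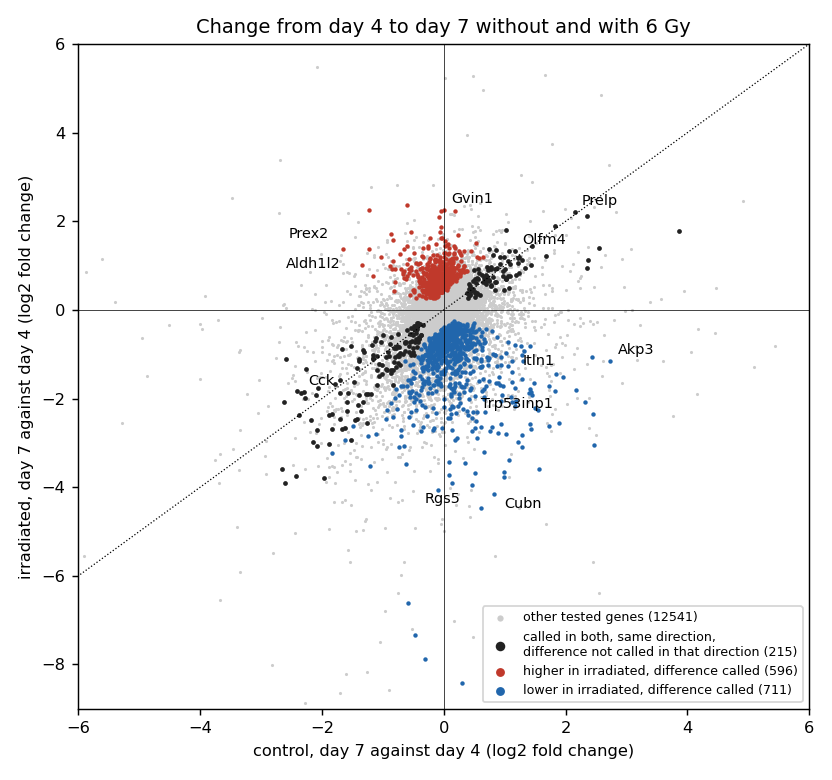
Each point is 1 of the 14063 tested genes, placed by its log2 fold change from day 4 to day 7 in control organoids (horizontal axis) and in irradiated organoids (vertical axis); 32 genes lie outside the axes. The 596 red and 711 blue genes, called in irradiated organoids and in the difference, lie above and below the dotted line of equal change, while the 215 black genes lie closer to it.

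Genes of the dividing cell rose together. All 25 mitosis genes on the list were higher at day 7 (median log2 fold change 0.79), none was called in controls (median -0.04), and the difference was called for 21. Nusap1, a spindle-associated protein, stood at 43.98 and 38.5 CPM at day 4 and 78.9 and 76.5 CPM at day 7, against 91.7 and 90.3 CPM at day 4 and 79.9 and 71.3 CPM at day 7 in controls. Its day 7 libraries were both above the day 4 pair, and the change was called (0.91 ± 0.10, adjusted p = 0.000245), as was the difference from control (1.18 ± 0.14, adjusted p = 0.00161). The proliferation antigen gene Mki67 was at 518 and 449.5 CPM at day 4 and 730.2 and 717 CPM at day 7 (0.58 ± 0.09, adjusted p = 0.00128). At day 7 it was still below all 4 control libraries, which lay between 929.5 and 1082 CPM. Ube2c, the ubiquitin carrier of the anaphase-promoting complex, went from 51.1 and 36.6 CPM at day 4 to 92.5 and 91.7 CPM at day 7. Both of its day 7 values were above the 4 control values, which ranged from 69.2 to 71.1 CPM (1.07 ± 0.13, adjusted p = 0.000415). Bub1b of the spindle checkpoint (0.96) and Birc5, which encodes survivin (0.94), rose alike, and the difference from control was called for both in every fit that left out 1 library. Cyclin B1, Ccnb1, rose (0.67 ± 0.13, adjusted p = 0.00491), but its difference from control missed the threshold (adjusted p = 0.0509). The mitosis genes still called in the difference numbered 5 to 7 without any one day 7 library and 13 without the first control day 4 library.

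DNA replication genes followed, with 22 of 25 higher and none lower (median 0.65; controls 0.16, none called), though the difference was called for 6, and for none without any one day 7 library or the second control day 4 library. Tyms, the thymidylate synthase, stood at 27.96 and 29.3 CPM at day 4 and 51.7 and 48.2 CPM at day 7 (0.81 ± 0.10, adjusted p = 0.000518). Control levels of Tyms moved the same way without being called, from 36.98 and 34.1 CPM at day 4 to 44.7 and 45.9 CPM at day 7, and the difference was not called (adjusted p = 0.0724). Mcm10 and Mcm7 of the replicative helicase machinery rose (0.77 and 0.91) and differed from control, at adjusted p = 0.0297 and 0.0393, a call lost without 1 library (up to 0.138 and 0.14). The flap endonuclease Fen1 rose (0.82 ± 0.13, adjusted p = 0.00143), and so did Pcna, the sliding clamp, by less (0.30 ± 0.07, adjusted p = 0.0113). The call for Pcna was lost without the second irradiated day 7 library (adjusted p = 0.0659). Among 25 DNA repair genes, 17 rose and 1 fell (median 0.56; controls 0.02), though the difference was called for 5. H2afx, the histone variant phosphorylated at breaks, went from 19.03 and 16.1 CPM at day 4 to 34.5 and 44.2 CPM at day 7 (1.16 ± 0.15, adjusted p = 0.000457), whereas Brca1 gave 43.2 and 43.2 CPM at day 4 and 49.3 and 48.2 CPM at day 7 and was not called (adjusted p = 0.206). Repair genes called higher numbered 10 and 8 without the first and second irradiated day 7 library, and 11 without the second irradiated day 4 library.

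Cell cycle inhibitors did not move as one. Cdkn2c, which encodes p18, rose from 8.49 and 7.62 CPM at day 4 to 18.98 and 18.9 CPM at day 7 (1.23 ± 0.15, adjusted p = 0.0004), and Cdkn1b, which encodes p27, from 40 and 35.5 CPM at day 4 to 66.95 and 60.3 CPM at day 7 (0.75 ± 0.10, adjusted p = 0.000574). Both differed from control (1.41 and 0.79, adjusted p = 0.00432 and 0.0088), a call that Cdkn1b lost without 1 library (up to 0.0605). Cdkn1a, the p53 target that encodes p21, moved in the other direction and is given with the p53 targets. Lmnb1, a nuclear lamin lost in senescent cells, rose as well (0.73 ± 0.12, adjusted p = 0.00206).

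Promoters of the mitosis genes are shown because these genes rose as a group. Cell cycle promoters commonly hold a CHR element and CCAAT boxes, which bind the DREAM and NF-Y complexes. The letters TTTGAA (CHR) and CCAAT were searched on both strands of the 300 bases from 250 before to 50 after each RefSeq start (GRCm38.p6). RefSeq gave a promoter for 21 of the 25 mitosis genes: 16 of them held TTTGAA and 17 held CCAAT. The former occurred in 17.9% and the latter in 37.4% of all 32851 promoters of that length, and in at least 1 promoter of 20.2% and 41.1% of the 27025 genes. A match is a description of the letters and not a proven site. In the sequences below capitals mark the matches, some of which overlap. Ube2c holds both elements, Mki67 holds 2 CHR matches, and Ccnb1 holds CCAAT only.
Ube2c (chr2:164769679-164769978, plus strand): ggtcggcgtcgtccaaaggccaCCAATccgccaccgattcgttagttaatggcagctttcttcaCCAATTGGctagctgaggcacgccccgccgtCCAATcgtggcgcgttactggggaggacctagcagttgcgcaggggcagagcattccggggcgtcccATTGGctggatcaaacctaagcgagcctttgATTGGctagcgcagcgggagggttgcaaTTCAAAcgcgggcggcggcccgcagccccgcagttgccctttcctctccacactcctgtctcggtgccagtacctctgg
Mki67 (chr7:135716330-135716629, minus strand): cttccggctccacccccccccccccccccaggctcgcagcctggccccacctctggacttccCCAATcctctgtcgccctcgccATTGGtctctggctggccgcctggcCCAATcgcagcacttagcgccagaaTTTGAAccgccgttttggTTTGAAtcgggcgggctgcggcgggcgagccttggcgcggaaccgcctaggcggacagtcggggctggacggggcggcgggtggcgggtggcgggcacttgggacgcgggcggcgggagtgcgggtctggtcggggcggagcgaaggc
Ccnb1 (chr13:100786437-100786736, minus strand): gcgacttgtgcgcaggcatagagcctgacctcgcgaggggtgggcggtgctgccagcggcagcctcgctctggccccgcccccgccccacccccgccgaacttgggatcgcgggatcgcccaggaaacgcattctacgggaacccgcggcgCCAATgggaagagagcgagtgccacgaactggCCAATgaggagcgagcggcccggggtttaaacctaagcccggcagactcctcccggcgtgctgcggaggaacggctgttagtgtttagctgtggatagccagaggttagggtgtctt

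Targets of p53 went down. Of 39 tested, 27 fell and 3 rose (median -0.90), against 4 lower in controls (median -0.21), and the difference was called lower for 15 and higher for 1. Trp53inp1, which promotes p53-dependent arrest and death, stood at 212 and 166 CPM at day 4 and 54.7 and 53.2 CPM at day 7, while controls gave 31.4 and 28.2 CPM at day 4 and 40.1 and 39.8 CPM at day 7. It fell (-1.81 ± 0.12, adjusted p = 2.09e-05) and differed from control (-2.24 ± 0.17, adjusted p = 0.000204), but its day 7 values remained above all 4 control values. Mdm2, the ligase that degrades p53, went from 148 and 128 CPM at day 4 to 49.4 and 51.9 CPM at day 7 (-1.45 ± 0.10, adjusted p = 2.14e-05). By day 7 it lay at or just below the control range of 51.9 to 55.3 CPM. Cdkn1a stood at 224 and 274 CPM at day 4 and 75.4 and 74.8 CPM at day 7 (-1.73 ± 0.16, adjusted p = 0.000261), and controls at 59.8 and 84.1 CPM at day 4 and 45.2 and 49.2 CPM at day 7. Its difference from control (-1.12 ± 0.23, adjusted p = 0.0202) was lost without 1 library (adjusted p up to 0.111). Ccng1 fell in both conditions, by more after irradiation (irradiated -1.43, control -0.47, difference -0.95 ± 0.12, adjusted p = 0.00245), and the kinase gene Plk2 fell as well (-1.28 ± 0.14, adjusted p = 0.000233). Among targets that missed the threshold, Pmaip1, which encodes the death effector NOXA, gave 61.8 and 72.7 CPM at day 4 and 49.5 and 43.7 CPM at day 7 (-0.53 ± 0.21, adjusted p = 0.0965). The anti-proliferative gene Btg2 gave 135 and 147 CPM at day 4 and 119.7 and 121 CPM at day 7 (-0.23 ± 0.10, adjusted p = 0.0976). Trp53 itself rose, from 69.3 and 52.9 CPM at day 4 to 103 and 108 CPM at day 7 (0.78 ± 0.12, adjusted p = 0.00131). The median distance of the p53 targets from control was 0.89 at day 4 and 0.32 at day 7. Without any one day 7 library 4 to 6 targets differed from control in the fall, and on the TPM scale 16 targets fell, with a median 0.73 below that of all genes.

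**Figure D2:**
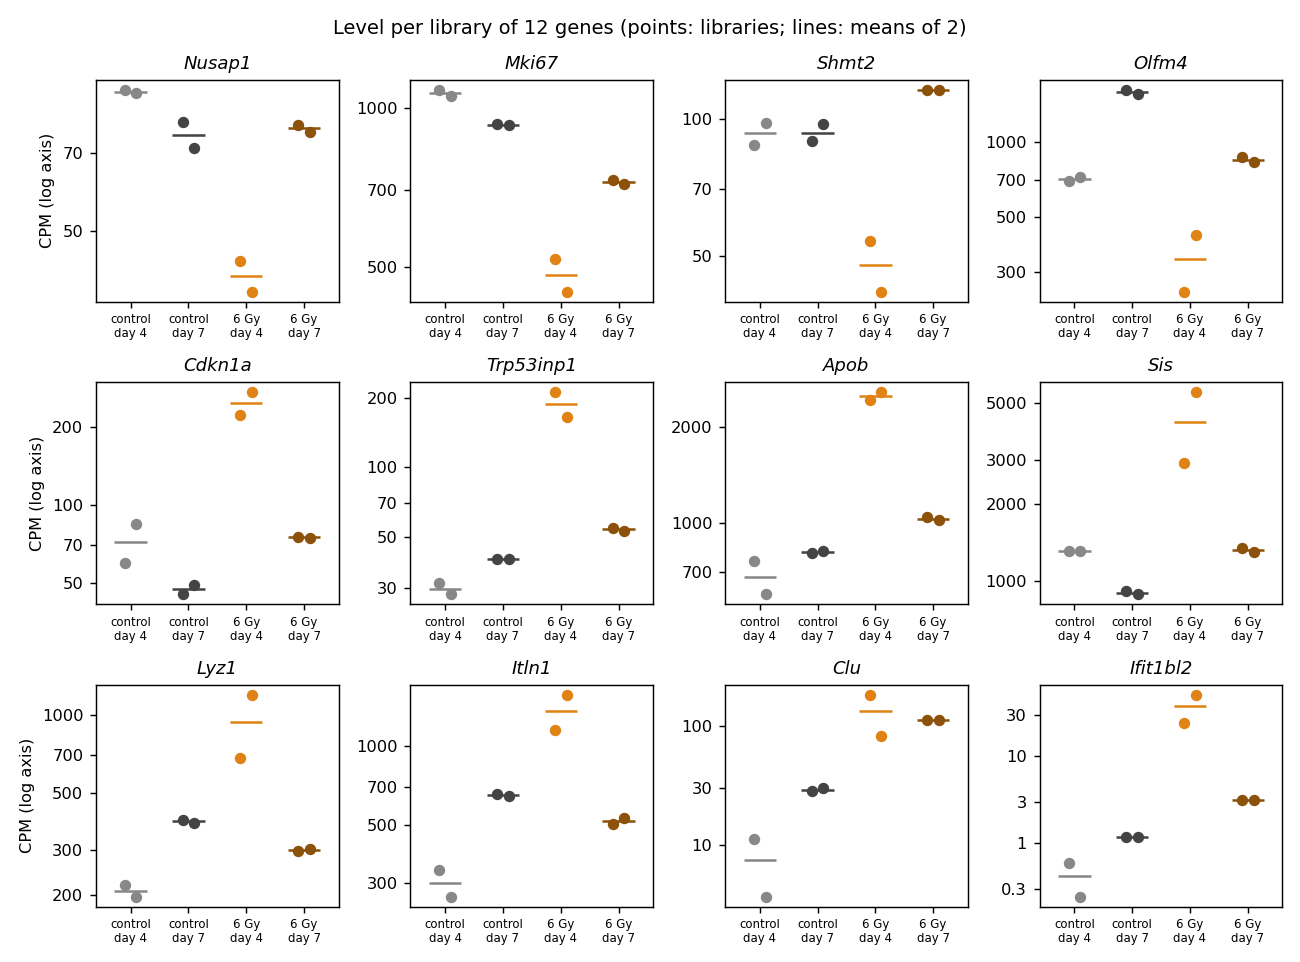
CPM on a log axis for 12 genes, with 1 point per library and a line at the mean of the 2 libraries of each group; vertical scales differ between panels. Nusap1, Mki67, Shmt2 and Olfm4 were higher in both irradiated day 7 libraries than in both irradiated day 4 libraries; the others except Clu were lower, and the day 4 values of Clu lay on either side of those at day 7.

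Genes of mature absorptive enterocytes, which had been far above control at day 4, fell. Of 24 genes for lipid uptake and lipoprotein assembly, 22 fell and none rose (median -1.26; controls 0.05, 1 higher and 1 lower), and the difference was called for 13. Apob, the core protein of chylomicrons, stood at 2441 and 2580 CPM at day 4 and 1042 and 1020 CPM at day 7, and controls at 758 and 598 CPM at day 4 and 806 and 818 CPM at day 7. The 2 pairs did not overlap (-1.28 ± 0.12, adjusted p = 8.72e-05; difference -1.54 ± 0.16, adjusted p = 0.000932). Apoa1 stood at 730.4 and 1160 CPM at day 4 and 174 and 173 CPM at day 7 (-2.44 ± 0.30, adjusted p = 0.00283), and at day 7 was still above all control libraries, which gave 16.2 to 27.9 CPM. Abcg8, a subunit of the sterol exporter, fell (-0.89 ± 0.11, adjusted p = 0.000417). Apoa4 and the fatty acid-binding protein gene Fabp1 fell more but with a wide spread at day 4: Apoa4 gave 906 and 2108 CPM at day 4 and 263 and 284 CPM at day 7 (-2.46 ± 0.48, adjusted p = 0.0188) and Fabp1 390.3 and 944 CPM at day 4 and 159 and 166 CPM at day 7 (-2.04 ± 0.47, adjusted p = 0.0316). Leaving out 1 library ended both calls, at adjusted p up to 0.101 without the first irradiated day 7 library for Apoa4 and up to 0.14 for Fabp1.

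Sugar-digesting and brush border genes showed the same course: 26 of 28 fell and 1 rose (median -1.47; controls 0.13, 1 called), and the difference was called lower for 17. Sucrase-isomaltase, Sis, was at 2910 and 5513 CPM at day 4 and 1345 and 1299 CPM at day 7 (-1.67 ± 0.26, adjusted p = 0.00389), the second day 4 library being the highest. The protocadherin gene Cdhr2, which links microvilli, went from 558 and 733 CPM at day 4 to 249.6 and 243 CPM at day 7, with controls at 119.9 to 137 CPM (-1.39 ± 0.11, adjusted p = 5.8e-05; difference -1.57 ± 0.16, adjusted p = 0.000813). Maltase-glucoamylase Mgam (-1.30), the aminopeptidase Anpep (-1.55) and the hexose carrier Slc2a2 (-1.74) fell alike. The 2 intestinal alkaline phosphatases moved in opposite directions in the 2 conditions. Akp3 went from 75.8 and 105 CPM at day 4 to 39.1 and 42.4 CPM at day 7 after irradiation (-1.15 ± 0.15, adjusted p = 0.000473) but from 2.04 and 1.89 CPM at day 4 to 12.99 and 13.2 CPM at day 7 in controls (2.73 ± 0.22, adjusted p = 0.000506). Its difference was -3.88 ± 0.26, adjusted p = 0.000133. Alpi fell after irradiation (-0.82 ± 0.21, adjusted p = 0.0226) and rose in controls (1.42 ± 0.25, adjusted p = 0.0371), though its fall was lost without either irradiated day 7 library (adjusted p = 0.145 and 0.107).

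Transporters and ileal genes completed this group. Of 19 tested carriers of amino acids, peptides and vitamins, 11 fell and none rose (median -1.18; controls 0.11), and of 10 tested ileal bile acid and cobalamin genes 6 fell and 1 rose (median -1.48; controls -0.07). Cubn, the receptor for intrinsic factor and cobalamin, stood at 51.7 and 111 CPM at day 4 and 4.49 and 4.69 CPM at day 7, against 0.792 to 1.84 CPM in controls (-4.15 ± 0.42, adjusted p = 0.000842). The lactate carrier Slc5a12 went from 25.4 and 50.4 CPM at day 4 to 1.94 and 1.56 CPM at day 7, with controls at 0.0609 to 0.107 CPM (-4.42 ± 0.36, adjusted p = 9.66e-05), though the difference was not called (adjusted p = 0.165). The neutral amino acid carrier Slc6a19 (-1.77 ± 0.18, adjusted p = 0.000319), the peptide carrier Slc15a1 (-2.44 ± 0.28, adjusted p = 0.000994) and Guca2b, which encodes uroguanylin (-1.86 ± 0.13, adjusted p = 3.46e-05), fell too. Slc10a2, the ileal bile acid carrier, gave 8.06 and 14.9 CPM at day 4 and 3.47 and 3.13 CPM at day 7 and was not called (adjusted p = 0.0775). The iron carrier Slc11a2 showed how far 1 library can depart: in the first and second replicate it gave 68.2 and 640.2 CPM at day 4 and 36.2 and 35.01 CPM at day 7 (adjusted p = 0.0983). At day 7 the median distance from control was 0.59 for the lipid genes, 0.88 for the sugar and brush border genes, 0.60 for the carriers and 1.32 for the ileal genes, against 1.71, 2.16, 2.15 and 3.6 at day 4. Difference calls fell to 4 or 5 lipid genes and to between 2 and 7 sugar and brush border genes without any one day 7 library, and 7 carriers fell without either irradiated day 7 library. Without the second irradiated day 4 library the 4 medians over time were less negative, at -0.94, -1.03, -0.85 and -1.25. On the TPM scale the 4 medians lay 1.02, 1.25, 1.03 and 1.08 below that of all genes.

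**Figure D3:**
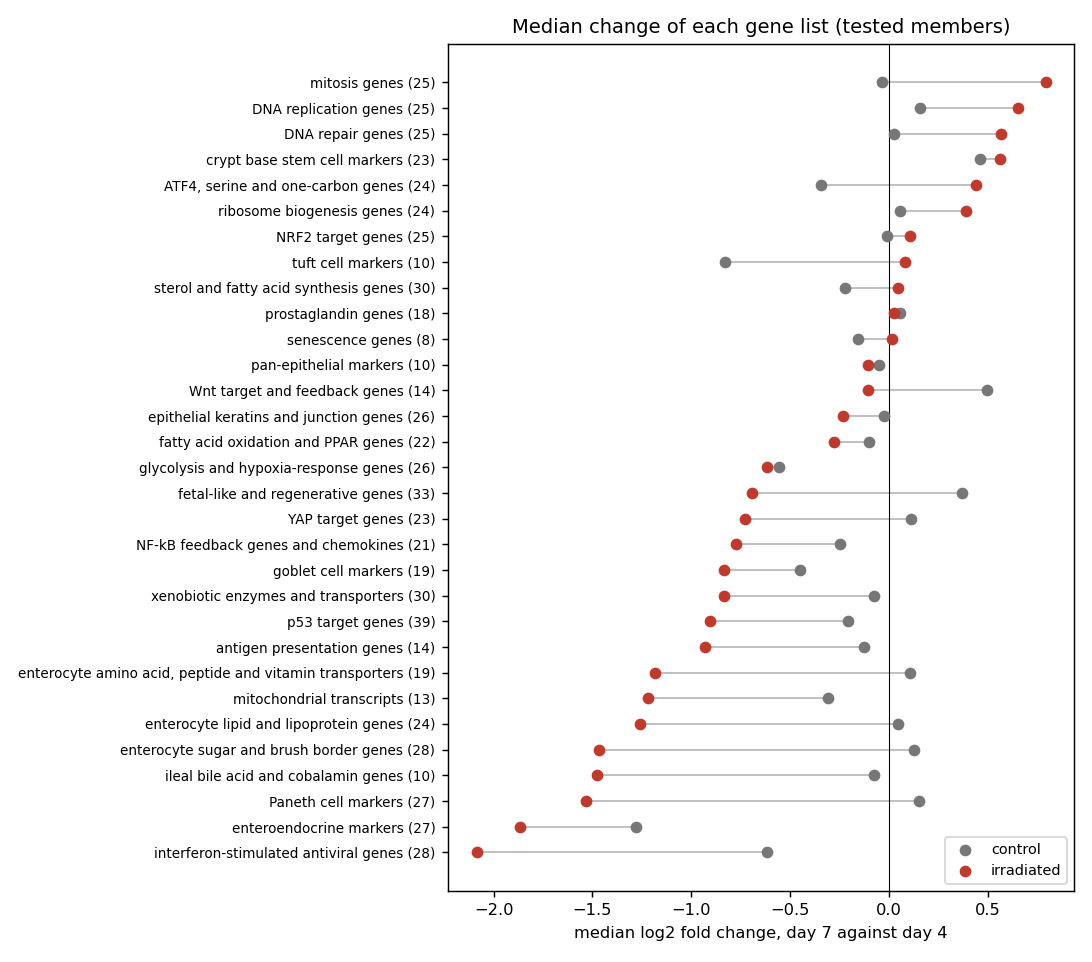
Median log2 fold change from day 4 to day 7 of each gene list with at least 8 tested members (number in brackets) in control organoids (grey) and irradiated organoids (red). Mitosis genes have the most positive irradiated median (0.79) and interferon-stimulated genes the most negative (-2.09), while crypt base stem cell markers moved by a similar amount in both conditions (0.56 and 0.46).

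Paneth, goblet and enteroendocrine markers fell in part. Of 27 tested Paneth cell markers 14 fell and none rose (median -1.53; controls 0.15), and the difference was called for 8. Itln1, an intelectin that binds microbial sugars, moved in opposite directions, from 1157 and 1572 CPM at day 4 to 506 and 531 CPM at day 7 after irradiation (-1.40 ± 0.15, adjusted p = 0.000358) and from 337 and 267 CPM at day 4 to 659.9 and 648 CPM at day 7 in controls (1.11 ± 0.15, adjusted p = 0.00883). At day 7 the irradiated organoids were below the control organoids of the same day. Lysozyme, Lyz1, gave 681 and 1201 CPM at day 4 and 298 and 301 CPM at day 7 (-1.65 ± 0.24, adjusted p = 0.00371), with controls at 219 and 198 CPM at day 4 and 391 and 383 CPM at day 7. Its day 7 values lay below those of control, and its difference (-2.55 ± 0.34, adjusted p = 0.0102) was lost without 1 library (adjusted p up to 0.0609). Ang4, an antimicrobial ribonuclease, fell (-2.93 ± 0.26, adjusted p = 0.000602), and so did the lectin gene Reg4 (-1.87 ± 0.10, adjusted p = 1.14e-05). The defensin Defa26 fell too (-2.70), but defensins are near-identical copies among which reads can be split. Reg3g fell (-1.53, adjusted p = 0.0198), a call lost without any one of the 4 irradiated libraries (0.0802 to 0.115), and Reg3b gave 59.8 and 85.2 CPM at day 4 and 14.7 and 14.8 CPM at day 7 without being called (adjusted p = 0.0718). Without the first and second irradiated day 7 library 9 and 8 Paneth markers fell. Paneth markers called lower in the difference numbered 3 to 6 without any one day 7 library and 15 without the first control day 4 library. On the TPM scale the Paneth median lay 1.29 below that of all genes.

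Of 19 goblet markers 10 fell after irradiation (median -0.83) and 4 in control (median -0.45), and the difference was called for 4. The gel-forming mucin gene Muc2 went from 403 and 655 CPM at day 4 to 104 and 112 CPM at day 7 (-2.29 ± 0.23, adjusted p = 0.000796) and in controls from 581 and 479 CPM at day 4 to 175 and 179 CPM at day 7 (-1.58 ± 0.22, adjusted p = 0.0221), and the difference was not called (adjusted p = 0.201). Guca2a, which encodes guanylin, fell after irradiation (-1.82 ± 0.13, adjusted p = 2.61e-05) and was not called in controls (-0.52), with a difference of -1.30 ± 0.19, adjusted p = 0.00489. The trefoil factor gene Tff3 fell in both (irradiated -1.23, control -0.50, difference -0.73 ± 0.12, adjusted p = 0.0071, lost without 1 library at up to 0.0762). Of 27 enteroendocrine markers 20 fell after irradiation (median -1.87) and 11 in control (median -1.28), and the difference was called for 2. The hormone gene Cck went from 73.01 and 62.2 CPM at day 4 to 18.1 and 19.01 CPM at day 7 (-1.87 ± 0.13, adjusted p = 2.61e-05) and in controls from 49.7 and 44.7 CPM at day 4 to 10.2 and 8.37 CPM at day 7 (-2.35 ± 0.14, adjusted p = 0.000126). Tac1, the substance P precursor, fell in both (irradiated -2.99, control -2.14). Pcsk1, the prohormone convertase, fell more after irradiation (-2.62 against -1.49, difference -1.13 ± 0.21, adjusted p = 0.011, lost without 1 library at up to 0.0788). Without the first and second control day 7 library 1 goblet marker each and 4 and 2 enteroendocrine markers fell in control; without either irradiated day 7 library it was 1 goblet and 6 enteroendocrine markers, and without the second control day 4 library 2 goblet markers. Without either irradiated day 4 library 7 goblet markers did. Chromogranin A, Chga, fell (-1.75 ± 0.36, adjusted p = 0.0186), but the call was lost without any one irradiated library (adjusted p 0.0888 to 0.123). Insm1, a factor of endocrine progenitors, gave 14.8 and 13.9 CPM at day 4 and 11.9 and 10.3 CPM at day 7 and was not called (adjusted p = 0.116). Among 10 tested tuft markers 2 rose and 1 fell, beside 14.7% higher and 18.3% lower over all tested genes. Their median was 0.08 (-0.01 to 0.26 when 1 library was left out) and -0.83 in control. It lay -1.97 from control at day 4 and -0.70 at day 7. Dclk1, the usual tuft marker, was under 1 CPM in all 4 irradiated libraries (0.430 and 0.762 CPM at day 4 and 0.306 and 0.361 CPM at day 7).

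Of 23 crypt base stem cell markers, 15 rose after irradiation (median 0.56) and 10 in control (median 0.46), none fell, and the difference was called higher for 2 and lower for 1. The control rises numbered 2 and 1 without the first and second control day 7 library, 6 without the second control day 4 library, 5 without either irradiated day 7 library and 15 without either irradiated day 4 library. Olfm4, a secreted marker of crypt base cells, went from 250.5 and 424 CPM at day 4 to 865 and 829 CPM at day 7 (1.33 ± 0.21, adjusted p = 0.00353) and in controls from 693 and 723 CPM at day 4 to 1615 and 1558 CPM at day 7 (1.16 ± 0.21, adjusted p = 0.0375), so the irradiated organoids stayed below the controls of the same day. Ascl2, the transcription factor of stem cell fate, rose in both (irradiated 1.33, control 1.07), and Rgmb and the Wnt feedback gene Axin2 did too (0.90 and 0.72; 0.88 and 0.97). Smoc2 rose after irradiation (0.94 ± 0.12, adjusted p = 0.000552) and missed the threshold in control (0.50 ± 0.12, adjusted p = 0.0584). Lgr5, the R-spondin receptor gene that defines these cells, was 1 of the 2 markers with a difference called higher. It went from 165 and 193 CPM at day 4 to 294 and 289 CPM at day 7 (0.71 ± 0.11, adjusted p = 0.00101), while controls gave 492 and 586 CPM at day 4 and 537 and 532 CPM at day 7. The 4 irradiated values were all below the 4 control values, and the difference (0.72 ± 0.15, adjusted p = 0.0162) was lost without 1 library (adjusted p up to 0.0848). Tnfrsf19 was the member with a more negative course: it gave 26.99 and 24.8 CPM at day 4 and 35.5 and 35.2 CPM at day 7 after irradiation, just short of a call (0.45 ± 0.16, adjusted p = 0.0514), and rose in controls from 7.67 and 4.998 CPM at day 4 to 24.3 and 25.8 CPM at day 7 (difference -1.56 ± 0.24, adjusted p = 0.00525).

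Wnt targets were mixed after irradiation, with 5 of 14 higher and 2 lower, beside 14.7% higher and 18.3% lower over all tested genes. Their median was -0.11, and 5 were higher in control (median 0.49). On the TPM scale their irradiated median was 0.22 above that of all genes, and it was 0.05 in counts without the first irradiated day 4 library. The feedback inhibitor Nkd1 rose in both (irradiated 1.39, control 2.55, difference not called, adjusted p = 0.135). Sp5, a transcription factor induced by Wnt, rose less after irradiation (0.95) than in control (2.34), with a difference of -1.40 ± 0.38, adjusted p = 0.046 that was lost without 1 library (adjusted p up to 0.166). Its irradiated rise was lost without the first irradiated day 4 library or either day 7 library (adjusted p up to 0.0832). Cyclin D1, Ccnd1, gave 106 and 72.3 CPM at day 4 and 58.1 and 65.6 CPM at day 7 and was not called (adjusted p = 0.117).

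Fetal-like and regenerative genes stood far above control at day 4 and came part of the way down. Of 33 tested, 14 fell and none rose (median -0.69; controls 0.37, 1 lower), and the difference was called lower for 9. The median distance from control was 2.67 at day 4 and 1.45 at day 7. Clu, the marker of revival stem cells, gave 184 and 82.7 CPM at day 4 and 114 and 113 CPM at day 7: the day 7 pair lay between the 2 day 4 values and no change was called (adjusted p = 0.763). Controls gave 11.1 and 3.66 CPM at day 4 and 28.1 and 29.8 CPM at day 7, so both irradiated day 7 libraries were above every control library. Anxa1 gave 218 and 78.7 CPM at day 4 and 82.9 and 83.7 CPM at day 7, again with the first day 4 library high and the second near day 7, and was not called (adjusted p = 0.312). Ly6a, which encodes the fetal marker Sca-1, fell from 36.02 and 17.1 CPM at day 4 to 8.78 and 9.75 CPM at day 7 (-1.52 ± 0.34, adjusted p = 0.0113) and ended just above the day 7 controls, which stood at 8.37 and 7.17 CPM. Its call was lost without either irradiated day 7 library (adjusted p = 0.0896 and 0.0701). Among the members named here, falls that were called whichever library was left out were those of Anxa2 (-1.16 ± 0.08, adjusted p = 2.54e-05), the tight junction gene Cldn4 (-0.76 ± 0.10, adjusted p = 0.000457) and the cyclin gene Ccnd2 (-1.12 ± 0.13, adjusted p = 0.000291). Members not named were not checked in this way. Without the first irradiated day 4 library 10 members fell and 5 rose (median -0.04). Without the second 20 fell (median -1.02), without either irradiated day 7 library 7 fell, and 2 differed from control without any one day 7 library. On the TPM scale 6 fell, with a median 0.59 below that of all genes.

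Targets of YAP, a growth regulator active in gut regeneration, gave 8 lower of 23 and none higher (median -0.73; controls 0.11), with 2 called in the difference. Their 2 canonical members were not called: Ccn1 gave 44.8 and 39.2 CPM at day 4 and 51.03 and 54.4 CPM at day 7 and Ccn2 gave 7.42 and 1.74 CPM at day 4 and 2.04 and 3.49 CPM at day 7 (adjusted p = 0.552 and 0.42). The EGF receptor ligand Areg fell (-1.40 ± 0.24, adjusted p = 0.0065), but its control values went the same way (-1.30 ± 0.26, adjusted p = 0.058), and its call was lost without the second irradiated day 4 library or either day 7 library (adjusted p 0.0523 to 0.0606). Without the first irradiated day 4 library the YAP median was -0.13, without either irradiated day 7 library 2 and 3 members fell, and on the TPM scale 1 did.

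Interferon-stimulated antiviral genes had the most negative median of the lists, and this fall leaned on 1 library. Of 28 tested, 19 fell and none rose (median -2.09; controls -0.61, none called), and the difference was called for 2. Summed over all 35 listed genes, irradiated day 4 libraries gave 448.7 and 1010 CPM and day 7 libraries 272.9 and 282.5 CPM, against 278.5 to 352.4 CPM in the 4 control libraries. Without the second irradiated day 4 library 13 members fell (median -1.05), without the first 29 of a larger tested set fell (median -2.89), without either irradiated day 7 library 3 fell, and without any one control library 15 fell. Ifit1, which binds viral RNA, gave 3.66 and 39.6 CPM at day 4 and 0.714 and 0.241 CPM at day 7 (-5.42 ± 1.51, adjusted p = 0.0486). Oas3, which makes the activator of RNase L, gave 1.83 and 17.3 CPM at day 4 and 0.714 and 0.722 CPM at day 7 (-3.71 ± 1.06, adjusted p = 0.0378). The call of Ifit1 was lost without any one control library or irradiated day 7 library (adjusted p up to 0.203). That of Oas3 was lost without any one library but the first irradiated day 4 library (up to 0.196). Ifit1bl2 was high in both day 4 libraries, going from 24.2 and 51.4 CPM at day 4 to 3.16 and 3.13 CPM at day 7, with controls at 0.244 to 1.20 CPM (-3.58 ± 0.39, adjusted p = 0.000566). Usp18, which removes ISG15 from proteins, had 77 counts in the 2 day 4 libraries and 1 count in the 2 day 7 libraries. Its day 4 level was 75.4 times that of day 7, with an exact 95% interval of 13.1 to 3016 for counting error only, and the fall was called (adjusted p = 0.00343). The antiviral kinase gene Eif2ak2 fell (-0.81 ± 0.14, adjusted p = 0.00211). Control levels of Ifit1, Oas3, Usp18 and Eif2ak2 went the same way without being called (-1.57, -2.91, -0.70 and -0.52). Those of Ifit1bl2 went up (1.57). The irradiated less the control change was -0.80 for Oas3 and -0.29 for Eif2ak2. The chemokine gene Cxcl10 gave 1.18 and 1.52 CPM at day 4 and 0.612 and 0.722 CPM at day 7 and was not called (adjusted p = 0.266). Isg15 was not tested for low counts: 53 of its 73 counts came from the second irradiated day 4 library.

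The interferon-stimulated response element is the sequence through which such genes are switched on. Its core was searched on both strands as GAAA followed, after any 2 bases, by a second GAAA. RefSeq gave a promoter for 21 of the 28 tested members, of which 13 held the core, against 3.44% of all promoters of 300 bases and 3.99% of genes. The promoters of Ifit1 and Oas3, both of which were high in the second day 4 library, are shown with the matches in capitals. Ifit1 holds 2 matches, and 245 bases of its window, from 34640694 to 34640938 on chromosome 19, are shared with the window of Ifit1bl2.
Ifit1 (chr19:34640639-34640938, plus strand): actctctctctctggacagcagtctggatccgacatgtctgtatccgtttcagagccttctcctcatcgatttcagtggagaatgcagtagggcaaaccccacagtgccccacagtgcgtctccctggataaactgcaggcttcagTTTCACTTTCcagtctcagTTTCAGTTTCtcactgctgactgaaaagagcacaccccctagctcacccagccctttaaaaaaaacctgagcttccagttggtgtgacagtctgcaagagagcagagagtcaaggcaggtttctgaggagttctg
Oas3 (chr5:120777610-120777909, minus strand): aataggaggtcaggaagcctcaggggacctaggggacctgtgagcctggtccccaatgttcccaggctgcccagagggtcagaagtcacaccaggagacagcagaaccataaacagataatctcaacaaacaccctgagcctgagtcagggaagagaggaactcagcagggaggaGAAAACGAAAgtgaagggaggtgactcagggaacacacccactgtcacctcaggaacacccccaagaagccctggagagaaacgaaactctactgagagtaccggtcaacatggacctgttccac

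**Figure D4:**
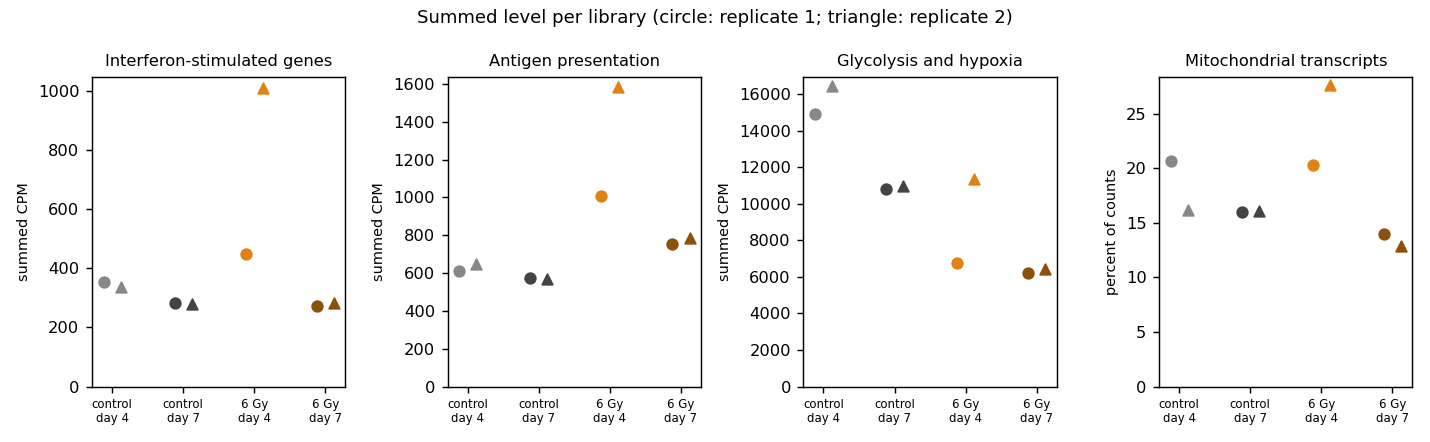
Summed CPM of 3 gene lists (all listed genes, tested or not) and the percent of counts from mitochondrial genes in each library, with circles for the first replicate and triangles for the second; axes start at 0. The second irradiated day 4 library is the highest for interferon-stimulated genes (1010 CPM), antigen presentation (1585 CPM) and mitochondrial transcripts (27.6%), and lies above its replicate for glycolysis (11340 against 6747 CPM).

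Antigen presentation genes fell in part (7 of 14 lower, 1 higher, median -0.93; controls -0.13). Tap1, the peptide transporter, went from 15.3 and 22.97 CPM at day 4 to 7.96 and 8.54 CPM at day 7 (-1.21 ± 0.21, adjusted p = 0.00231). The class I gene H2-D1 fell (-0.74 ± 0.13, adjusted p = 0.00326), a call lost without the first irradiated day 7 library (adjusted p = 0.0571), and its close relatives can share reads. B2m, the light chain of class I, gave 274 and 513 CPM at day 4 and 206 and 206 CPM at day 7, just short of a call (adjusted p = 0.0505). Without the second irradiated day 4 library 7 members fell, with a median of -0.40, and 3 and 4 fell without the first and second irradiated day 7 library. The inflammatory regulators downstream of NF-kB gave 10 lower and 2 higher of 21 (median -0.77; controls -0.25). Among them Tnfaip3, the feedback enzyme A20, fell (-1.17 ± 0.19, adjusted p = 0.00136), and Tnfaip2 went from 3.23 and 4.14 CPM at day 4 to 0.306 and 0.241 CPM at day 7, ending below its control values of 0.792 to 1.29 CPM (-3.68 ± 0.52, adjusted p = 0.00074). Without either irradiated day 7 library 3 and 6 of these regulators fell, and on the TPM scale 1 did.

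Of 24 genes of the ATF4, serine and one-carbon group 14 rose and 3 fell (median 0.44), while 4 fell and none rose in control (median -0.35). The difference was called higher for 12, and for 7 to 15 when 1 library was left out, 7 or 8 without any one day 7 library. Shmt2, the mitochondrial serine hydroxymethyltransferase, went from 53.9 and 41.8 CPM at day 4 to 116 and 116 CPM at day 7, with controls at 87.8 to 98.1 CPM (1.27 ± 0.12, adjusted p = 0.000115; difference 1.27 ± 0.16, adjusted p = 0.00264). Both day 7 libraries were above every control library. The leucine carrier Slc7a5 (1.15 ± 0.14, adjusted p = 0.000453) and Aldh18a1 of proline synthesis (0.76 ± 0.09, adjusted p = 0.000339) rose too. Aldh1l2, a mitochondrial folate enzyme, and Atf5, a stress factor, moved in the opposite direction to control. Aldh1l2 stayed below control at day 7, whereas Atf5 ended just above it. Aldh1l2 went from 3.33 and 3.48 CPM at day 4 to 6.43 and 7.46 CPM at day 7 after irradiation and from 29.9 and 30.8 CPM at day 4 to 11.3 and 12.5 CPM at day 7 in control (difference 2.37 ± 0.24, adjusted p = 0.000747). Atf5 went from 13.8 and 16.2 CPM at day 4 to 30.8 and 29.1 CPM at day 7 after irradiation and from 47.1 and 55.9 CPM at day 4 to 27.8 and 27.9 CPM at day 7 in control (difference 1.89 ± 0.18, adjusted p = 0.000725). Nupr1, another stress gene, fell in both (irradiated -1.03, control -0.74). Ribosome biogenesis genes gave 13 higher of 24 and none lower (median 0.39; controls 0.06, none called), though the difference was called for 3. Polr1b of RNA polymerase I rose (0.57 ± 0.10, adjusted p = 0.00238), as did the nucleolar gene Nolc1 (0.51 ± 0.09, adjusted p = 0.00244). Ribosome biogenesis calls numbered 9 and 8 without the first and second irradiated day 7 library, 9 without the second irradiated day 4 library and 21 without the first.

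Of 30 sterol and fatty acid synthesis genes 8 rose and 2 fell (median 0.04; controls -0.22), beside 14.7% higher and 18.3% lower over all tested genes. The lipogenic factor Srebf1 (0.72 ± 0.11, adjusted p = 0.000975) and fatty acid synthase Fasn (0.54 ± 0.10, adjusted p = 0.00353) rose. Without the first and second irradiated day 7 library 5 and 3 sterol and fatty acid synthesis genes rose. Fatty acid oxidation genes mostly fell where called, 11 lower and 3 higher of 22 (median -0.28, and 0.20 below that of all genes on the TPM scale). Without the first and second irradiated day 7 library 4 and 3 of them fell.

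Glycolysis and hypoxia-response genes stayed below control on both days (median distance -0.96 at day 4 and -0.91 at day 7). Over time 3 of 26 fell and 1 rose after irradiation (median -0.62), and none was called in control (median -0.55). Over all tested genes 18.3% were called lower and 14.7% higher after irradiation. Irradiated sums over the list were 6747 and 11340 CPM on day 4 and 6211 and 6436 CPM on day 7. Without the first irradiated day 4 library 23 fell (median -1.01), and without the second 4 fell and 4 rose (median 0.01). Lactate dehydrogenase A, Ldha, gave 662 and 1219 CPM at day 4 and 555 and 564 CPM at day 7 (adjusted p = 0.0616), and Gapdh 1508 and 2386 CPM at day 4 and 1332 and 1422 CPM at day 7 (adjusted p = 0.06). Hexokinase 1, Hk1, fell (-1.58 ± 0.20, adjusted p = 0.000608), as did the hypoxia gene Ndrg1 (-1.17 ± 0.16, adjusted p = 0.000959), and the control values of both went the same way (-0.80 and -0.58, not called).

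Among antioxidant genes calls went both ways, and xenobiotic genes mostly fell where called. Targets of NRF2, the oxidative stress factor, gave 7 higher and 6 lower of 25, beside 14.7% higher and 18.3% lower over all tested genes. Their median was 0.10 (controls -0.01), and their median distance from control was 0.86 at day 4 and 0.74 at day 7. Nqo1, a quinone reductase, rose from 35.7 and 31.4 CPM at day 4 to 57.7 and 55.5 CPM at day 7 (0.75 ± 0.18, adjusted p = 0.0102) and at day 7 was above all control libraries, which gave 24 to 44.9 CPM. That call was lost without the second irradiated day 4 or the first day 7 library (adjusted p = 0.0753 and 0.0582). Srxn1, the sulfiredoxin gene, fell from 108 and 111 CPM at day 4 to 66.6 and 68.8 CPM at day 7 (-0.69 ± 0.09, adjusted p = 0.000592) but stayed above the 29.99 to 35.4 CPM of controls. The epoxide hydrolase gene Ephx1, also on the NRF2 list, fell (-1.13 ± 0.14, adjusted p = 0.000496). Gsta1 fell (-1.09 ± 0.19, adjusted p = 0.00368), a call lost without the second irradiated day 4 library (adjusted p = 0.0676), and its near-identical relatives can share reads. The core of the antioxidant response element (TGAC, any 3 bases, GC) was in the promoter of 9 of the 21 NRF2 targets with a RefSeq promoter and in 12.4% of all promoters, or 14% of genes. Among 30 genes for xenobiotic handling 18 fell and 1 rose (median -0.84; controls -0.08, 2 higher and 3 lower). That irradiated median was -0.52 without the second irradiated day 4 library. Cyp3a13 went from 1176 and 1185 CPM at day 4 to 379 and 369 CPM at day 7, with controls at 45.2 to 69.3 CPM (-1.66 ± 0.16, adjusted p = 0.000292; difference -1.84 ± 0.23, adjusted p = 0.00412). The carboxylesterase gene Ces2c fell (-1.14 ± 0.10, adjusted p = 7.83e-05). Cyp3a11 gave 3601 and 5287 CPM at day 4 and 1055 and 1037 CPM at day 7, against 38.3 to 232 CPM in controls, and missed the threshold (adjusted p = 0.061). Without either irradiated day 7 library 9 xenobiotic genes fell and 3 NRF2 targets moved each way.

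**Figure D5:**
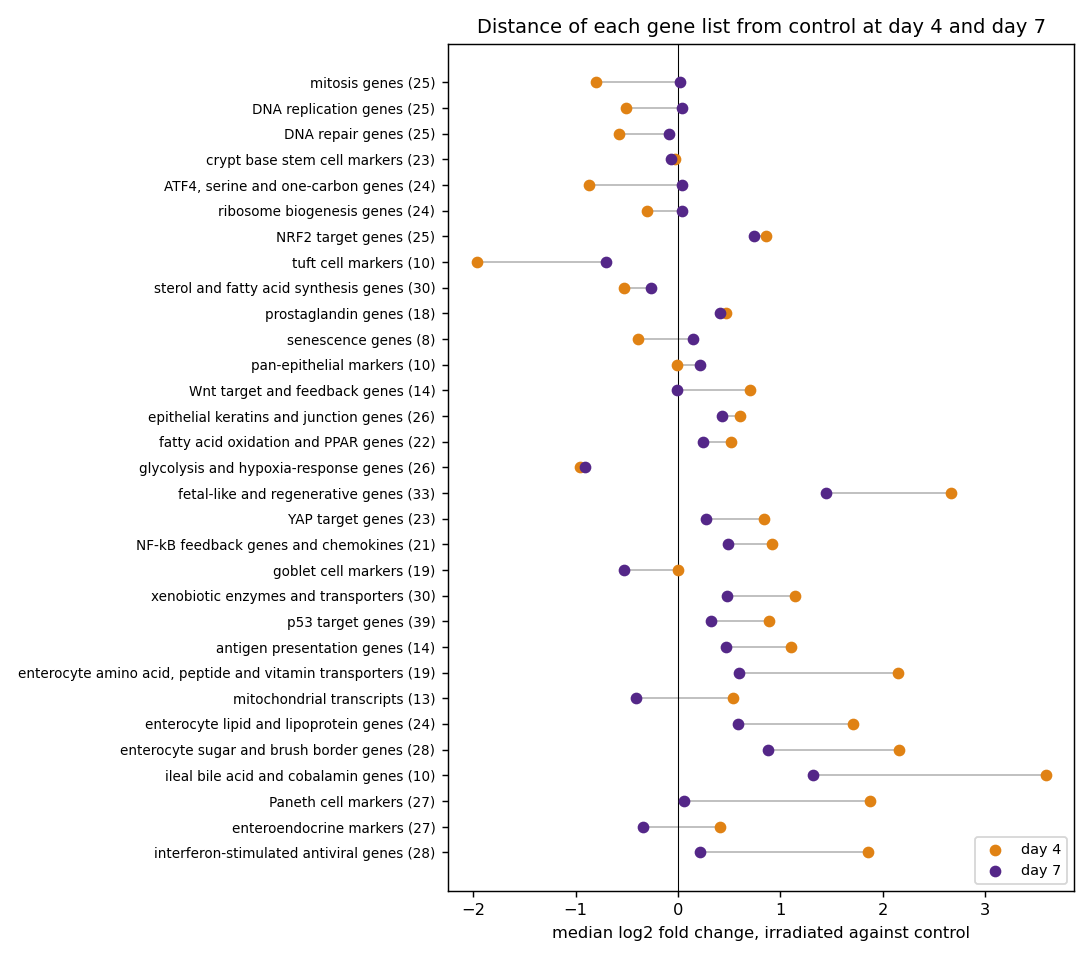
Median log2 fold change of irradiated against control organoids at day 4 (orange) and at day 7 (purple) for each gene list with at least 8 tested members (number in brackets). Mitosis genes went from -0.80 to 0.02 and Paneth markers from 1.88 to 0.06, whereas NRF2 targets stood at 0.86 and 0.74 and glycolysis genes at -0.96 and -0.91.

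The largest single changes were partly shared with control. Gvin1, an interferon-inducible very large GTPase, had the largest rise of the named genes: it went from 15.9 and 17.6 CPM at day 4 to 87.05 and 73.2 CPM at day 7 (2.26 ± 0.15, adjusted p = 2.61e-05), with controls at 132 to 170.3 CPM. It lay below control on both days, and its difference (2.25 ± 0.20, adjusted p = 0.000574) was called whichever library was left out. Prelp, a matrix proteoglycan, and Vwa2 rose in both conditions (irradiated 2.20 and 1.90, control 2.15 and 1.82), and the vessel ligand gene Angpt2 rose in both (1.81 and 1.02). Rises without a called control change included Nrm, an inner nuclear membrane protein (4.52 and 4.46 CPM at day 4 and 14.4 and 14.4 CPM at day 7), the iron-binding protein gene Pir (1.62), the biliverdin reductase Blvrb (1.56) and the actin-binding smoothelin gene Smtn (1.47). The difference was called for these 4, at adjusted p = 0.00749, 0.0245, 0.0234 and 0.0138, and lost for each without 1 library (up to 0.0537, 0.101, 0.107 and 0.077).

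Among the largest falls, the imprinted transcript H19 went from 12.2 and 8.49 CPM at day 4 to 0.510 and 0.120 CPM at day 7 (-4.92 ± 0.55, adjusted p = 0.000273), with controls at 0 to 0.170 CPM and a difference that was not called (adjusted p = 0.276). Rgs5, best known from pericytes, went from 101 and 62.4 CPM at day 4 to 5.71 and 4.81 CPM at day 7, with controls at 0.305 to 0.767 CPM (-3.95 ± 0.28, adjusted p = 7.32e-05). Slc7a15, a carrier gene, went from 24.2 and 46.6 CPM at day 4 to 2.04 and 1.08 CPM at day 7 (-4.46 ± 0.40, adjusted p = 0.000178) and the sialic acid lyase Npl from 56.1 and 127 CPM at day 4 to 6.63 and 6.86 CPM at day 7 (-3.76 ± 0.47, adjusted p = 0.00261). The cholesterol exporter Abca1 (-3.45 ± 0.51, adjusted p = 0.00377) and xanthine dehydrogenase Xdh (-2.27 ± 0.30, adjusted p = 0.00206) fell as well. Pappa2, a protease of IGF-binding proteins, fell in both conditions (irradiated -3.91, control -2.60, adjusted p of the difference 0.237). Gal3st2 had 422 counts in the 2 irradiated day 4 libraries and 1 count in the 2 day 7 libraries, a level 413 times that of day 7 with an exact 95% interval of 73.8 to 16360 for counting error only (adjusted p = 0.000315). It has near-identical copies among which the reads could be split.

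Opposite courses, called in both conditions with opposite signs and in the difference, were taken by 21 genes higher after irradiation (0.149%) and 22 lower (0.156%). Prex2, an exchange factor for Rac, went from 15.6 and 19.1 CPM at day 4 to 57.1 and 32.97 CPM at day 7 and in controls from 32.6 and 38.3 CPM at day 4 to 10.6 and 11.9 CPM at day 7 (difference 3.04 ± 0.36, adjusted p = 0.00406). Dmbt1, a mucosal scavenger protein, went from 42.3 and 61.4 CPM at day 4 to 137 and 131 CPM at day 7 and in controls from 193 and 273 CPM at day 4 to 98.3 and 101 CPM at day 7 (difference 2.60 ± 0.29, adjusted p = 0.00515). The adhesion gene L1cam followed the same pattern (0.77 and -1.15), its irradiated rise being lost without the second irradiated library of either day (adjusted p = 0.119 and 0.114). In the other direction the kinase gene Sgk1 fell after irradiation and rose in control (-1.65 and 1.49), with a difference of -3.13 ± 0.35, adjusted p = 0.00148. The sulfotransferase Sult6b2 (-1.46 and 1.85) and the anion carrier Slc4a11 (-1.07 and 2.44) did likewise, besides Akp3 and Itln1 above. In each of these 5 the 2 conditions lay closer at day 7 than at day 4. The fall of Slc4a11 was lost without the first irradiated day 4 library or either day 7 library (adjusted p 0.0613 to 0.0837).

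Control-only courses, called in control and in the difference with an irradiated change that was not called and under 0.5, were taken by 26 genes higher (0.185%) and 19 lower (0.135%) in control. Cyp2b10 gave 362 and 412 CPM at day 4 and 375 and 379 CPM at day 7 after irradiation and 51.04 and 27.7 CPM at day 4 and 138 and 154 CPM at day 7 in control (difference -1.94 ± 0.36, adjusted p = 0.0261). Thbs1, a matrix glycoprotein, gave 137 and 119.9 CPM at day 4 and 119 and 119 CPM at day 7 after irradiation and 32.04 and 15.6 CPM at day 4 and 81.5 and 85.3 CPM at day 7 in control (difference -1.94 ± 0.41, adjusted p = 0.0403). Arginase 2, Arg2, and the oxidase organiser Noxo1 also rose in control (1.28 and 1.19). Irradiated levels of these 4 were above control on both days. The glutamate carrier Slc1a1 and the BMP target Id1 fell in control (-1.58 and -1.37), with irradiated levels below control at day 4. Of the 6 differences, that of Noxo1 was called whichever library was left out, and the others reached adjusted p = 0.0876 to 0.147.

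The genes named by the study's title and genotype are given last. Ptgs1, which encodes cyclooxygenase 1, was not tested: it had 4 and 2 counts in irradiated organoids at day 4, 5 and 3 at day 7 and 5 over the 4 control libraries. Ptgs2, the inducible cyclooxygenase, gave 10.6 and 4.79 CPM at day 4 and 11.2 and 10.8 CPM at day 7 (adjusted p = 0.419). In control Ptgs2 moved by 2.47, and irradiated levels lay above control by 4.05 at day 4 and 2.10 at day 7 (log2). Of 18 tested prostaglandin genes 3 rose and 4 fell, near the shares of 14.7% higher and 18.3% lower over all tested genes. Their median was 0.02 and ranged from -0.24 to 0.06 when 1 library was left out. Hpgd, which degrades prostaglandins, fell from 118 and 119 CPM at day 4 to 53.2 and 45.96 CPM at day 7 (-1.26 ± 0.11, adjusted p = 8.1e-05; difference -1.68 ± 0.16, adjusted p = 0.000725), and so did the prostaglandin carrier Slco2a1 (-1.68 ± 0.20, adjusted p = 0.000359), which also fell in control (-1.09). The receptor gene Ptger4 rose (0.64 ± 0.21, adjusted p = 0.0421), a call lost in several fits that left out 1 library. Its control values moved by a similar amount (0.63, difference 0.01). Among the OSKM factor genes, Pou5f1 gave 4 counts and Sox2 gave 1 over all 8 libraries. Klf4 fell from 21.1 and 26.4 CPM at day 4 to 13.8 and 12.6 CPM at day 7 (-0.84 ± 0.18, adjusted p = 0.00567) and in control (-0.74 ± 0.16, adjusted p = 0.0444), and its irradiated call was lost without the second irradiated day 7 library (adjusted p = 0.0693). Myc gave 56.02 and 40.7 CPM at day 4 and 41.95 and 43.9 CPM at day 7 and was not called (adjusted p = 0.383).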

How the data were processed

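RNA-seq was measured in 8 libraries: irradiated and control organoids at day 4 and day 7, 2 each, grouped by their labels. The authors deposited 1 table of expected counts and 1 of TPM per gene. The submitters' processing notes name RSEM 1.3.3, STAR 2.7.3a, Trim Galore and FastQC, and the builds GRCm39 and mm10 with no role for either. The annotation is not given in the sources used here. Libraries were made with a strand-marking poly-A kit, per the labels' protocols, and replicates were not pooled.

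The deposited expected counts were rounded, which changed 11.4% of values, and filtered with filterByExpr (minimum count 10, minimum total 15), leaving 14063 genes. Gene symbols came from a GENCODE M21 table that matched 52083 of 55416 identifiers; 33 tested genes had none. Counts were scaled by TMM and tested in edgeR 4.0.16 (R 4.3.3) with the robust quasi-likelihood F-test, 1 fit of 4 group means with 4 residual degrees of freedom, with Benjamini-Hochberg adjustment over all tested genes. The contrasts were day 7 against day 4 in irradiated and in control organoids and the difference of both. Irradiated against control at each day gave only list medians and log2 values beside named genes. The standard error is the size of the log2 fold change divided by the square root of F. Depth limits genes of few counts, and intervals of count ratios are exact and cover counting error only. The procedure was tested on simulated data.

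Named genes were taken by rule: the largest rises and falls with a mean of at least 5 CPM, the largest differences from control, opposite and control-only courses, the members of each list with the smallest p and up to 2 others, and a set of marker genes. From these the text describes the genes that show each pattern. Members and lists were chosen with earlier results of these data known. Alternatives were DESeq2 1.42.0 (size factors, and its own test), limma-voom 3.58.1, no filter and a strict one (5 CPM in 2 libraries), log2(TPM + 1) and log2(TPM + 0.1), a fold change of at least 2, fits of 1 condition, mitochondrial genes left out, a replicate block, and leaving out each library. Promoters were RefSeq's (GRCm38.p6). Some items are not reported here.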

Additional observations from a re-analysis of the deposited data

Results flagged for a closer look

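For 83 named genes the change from day 4 to day 7 differed between irradiated and control organoids by a test of the difference itself, the interaction contrast of the edgeR fit (adjusted p under 0.05, n = 2 per group). Values are the irradiated less the control log2 change. Of the 83, 34 passed in every fit that left out 1 library; 49 did not. Division and inhibitor genes changed more positively after irradiation, with 1.18 for Nusap1, 0.94 for Bub1b, 1.01 for Birc5, 1.08 for Ube2c, 0.78 for Mki67, 0.59 for Mcm10, 0.65 for Mcm7, 1.03 for H2afx, 0.79 for Cdkn1b and 1.41 for Cdkn2c. p53 targets changed more negatively, with -0.95 for Ccng1, -2.24 for Trp53inp1, -1.39 for Mdm2, -1.15 for Plk2, -1.12 for Cdkn1a and -0.63 for Btg2. Enterocyte genes changed more negatively, with -2.55 for Apoa1, -1.54 for Apob, -1.23 for Abcg8, -1.11 for Mgam, -1.04 for Anpep, -1.57 for Cdhr2, -2.24 for Alpi, -3.88 for Akp3, -2.08 for Slc2a2, -1.94 for Slc6a19, -2.51 for Slc15a1, -4.97 for Cubn and -1.61 for Guca2b. Secretory genes changed more negatively, with -2.55 for Lyz1, -3.12 for Ang4, -2.84 for Defa26, -2.51 for Itln1, -1.41 for Reg4, -0.73 for Tff3, -1.30 for Guca2a and -1.13 for Pcsk1. Among stem cell markers and Wnt targets the differences were 0.72 for Lgr5, -1.56 for Tnfrsf19 and -1.40 for Sp5. Fetal-like, interferon and inflammatory genes changed more negatively, with -3.49 for Ly6a, -0.52 for Anxa2, -0.95 for Cldn4, -0.75 for Ccnd2, -5.15 for Ifit1bl2 and -4.20 for Tnfaip2. Biosynthetic genes changed more positively, with 1.27 for Shmt2, 0.65 for Aldh18a1, 1.10 for Slc7a5, 2.37 for Aldh1l2, 1.89 for Atf5, 0.49 for Nolc1 and 0.58 for Srebf1.

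For oxidation, antioxidant, xenobiotic and prostaglandin genes the differences were 1.36 for Nqo1, -0.77 for Ephx1, -0.79 for Srxn1, -1.83 for Gsta1, -0.87 for Ces2c, -1.84 for Cyp3a13 and -1.68 for Hpgd. Among the largest rises the differences were 2.25 for Gvin1, 1.45 for Nrm, 1.65 for Pir, 1.54 for Blvrb and 1.43 for Smtn. Among the largest falls they were -5.08 for Slc7a15, -4.41 for Rgs5, -3.80 for Abca1, -2.66 for Xdh, -8.72 for Gal3st2 and -4.75 for Npl. Opposite courses gave 3.04 for Prex2, 2.60 for Dmbt1, 1.93 for L1cam, -3.50 for Slc4a11, -3.13 for Sgk1 and -3.31 for Sult6b2. Control-only courses gave -1.94 for Thbs1, -1.47 for Arg2, -1.94 for Cyp2b10, -1.43 for Noxo1, 2.02 for Slc1a1 and 1.80 for Id1. The fitted value of Gal3st2 rests on 1 count at day 7 and depends on the prior count, and near-identical copies can share its reads, as they can for Defa26 and Gsta1. The 34 were Nusap1, Bub1b, Birc5, Ube2c, Cdkn2c, Ccng1, Trp53inp1, Mdm2, Apob, Abcg8, Cdhr2, Akp3, Slc2a2, Slc6a19, Guca2b, Ang4, Itln1, Reg4, Guca2a, Tnfrsf19, Cldn4, Shmt2, Aldh1l2, Atf5, Cyp3a13, Gvin1, Prex2, Dmbt1, L1cam, Slc4a11, Sgk1, Sult6b2, Noxo1 and Hpgd.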

How the results depend on the processing

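No called change of a named gene reversed under the alternatives run, but the balance of irradiated calls did: with no filter 53.4% were higher, and 55.0% and 51.6% without the first and second irradiated day 7 library. In fits of counts, irradiated list medians that changed sign when 1 library was left out were those of Wnt, sterol, tuft, senescence, prostaglandin, pan-epithelial, endothelial and glycolysis genes. Several control medians near 0 did so too, among them those of Paneth, enterocyte lipid, carrier, ileal, YAP and NF-kB genes. The median difference of the crypt base stem cell markers also changed sign. Leaving out 1 library at a time gave 2094 to 5252 genes changed in irradiated organoids, 244 to 2718 in the difference, 17 to 1234 in control organoids, and 233 to 2490 called in irradiated organoids and in the difference in the same direction. For the fits that left a group with 1 library, that library was assumed to vary like the other groups. A fold change of at least 2 left 1388 irradiated, 569 difference and 156 control genes. With no filter the difference was called for 2456, control change for 1217 and both tests for 2112 genes. On the log2(TPM + 1) scale these counts were 308, 58 and 291, and on the log2(TPM + 0.1) scale 338, 55 and 315. Higher calls among the irradiated genes were 81.5% and 83.1% on the 2 TPM scales against 44.6%. Control calls were 858 with limma-voom and 620 in a fit of the 4 control libraries alone. The cause of these shifts was not tested. DESeq2 called 3347 irradiated, 1129 difference and 429 control genes.

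Same-numbered libraries did not deviate together (correlations of -0.0355 to 0.0581), so the numbers were not taken as pairs. With the replicate number as a block, 4643 irradiated, 1443 difference, 473 control and 1317 joint calls were made. Of 3990 values of single genes under alternatives, 3546 stayed on the same side of the threshold, 388 lost the call, 56 gained it and 0 reversed. With 2 libraries per group and 4 residual degrees of freedom, the spread is estimated mostly by pooling, and genes of few counts are limited by depth.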

Other observations

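Over all tested genes 18.3% were called lower and 14.7% higher after irradiation. Of 26 tested epithelial keratins and junction genes, 9 fell and 3 rose between day 4 and day 7 in irradiated organoids (median log2 fold change -0.23, and 0.14 below that of all genes on the log2(TPM + 1) scale), and 1 fell in control. Those that fell numbered 5 without either irradiated day 7 library and 16 without the second irradiated day 4 library, and those that rose 2 and 1 without the first and second irradiated day 7 library and 5 without the first irradiated day 4 library. Of 8 tested senescence genes, 3 rose and 1 fell after irradiation, beside 14.7% higher and 18.3% lower over all tested genes, and none was called in control. Their median was 0.01 and ranged from -0.03 to 0.48 when 1 library was left out. Lmnb1, which is lost in senescent cells, was among the 3 that rose, so these counts give no direction for senescence.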
